A study of Homo sapiens with 6 samples.

Results

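The genes described here encode the factors that start and extend protein synthesis in HepG2, a human liver tumour cell line. They were all protein-coding genes of the deposited table whose symbol starts with EIF or EEF followed by a digit, leaving out the eIF2 kinase genes (symbols starting with EIF2AK) and EEF1E1. This rule used no measured value and gave 60 of 19846 genes. RNA was sequenced from 3 samples of HepG2 grown as 3D cultures in a bioreactor of interwoven hollow fibers and from 3 samples grown as 2D cultures on plates, all at passage 7 to 9. The bioreactor held EMEM and DMEM in equal parts with 10% serum, penicillin-streptomycin and GlutaMAX, recirculated at 23.5 mL/min, fed at 2 mL/hour and gassed at 200 mL/min. Plate cultures, seeded with 200000 cells per square centimetre, were kept in EMEM, whose serum content is not given, with a medium change at intervals of 2 days. The form of culture, the medium and its supply therefore cannot be told apart. No label states that replicates were separate cultures or runs, and p-values therefore cover just the spread between these 6 libraries, which may be technical. The question is how the messenger RNA of each factor complex differed between 3D and 2D culture.

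Initiation factors bring the initiator tRNA and the small ribosomal subunit to the capped end of a messenger RNA, scan for the start codon and join the large subunit. Elongation factors then deliver each aminoacyl-tRNA and move the ribosome along by a codon at a time. Cells adjust protein synthesis mainly by phosphorylating eIF2, eEF2 and the proteins that bind eIF4E. Many factor messages also start with a cytosine and a run of pyrimidines, a sequence through which the kinase mTOR controls their translation.

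Library totals were 9530795 to 15897621 counts in 3D and 16270361 to 17943513 counts in 2D, and 3D replicate 1 had the fewest. This library and 2D replicate 2, both doubted in earlier work on these data, were left out together in one of the alternatives. All 11 hepatocyte and HepG2 markers were in the table, with a summed level of 31430 to 50280 CPM in 3D against 40280 to 44680 CPM in 2D (CPM, the count of a gene relative to its TMM-scaled library total). Of 7 fibroblast markers 2 were in the table, summing to 2.98 to 3.75 CPM in 3D against 7.03 to 13.96 CPM in 2D. Of 6 endothelial markers 3 were, summing to 2.46 to 5.49 CPM in 3D against 2.00 to 4.79 CPM in 2D. Of 7 blood and macrophage markers 3 were, summing to 435.9 to 1015 CPM in 3D against 979.6 to 1476 CPM in 2D, nearly all from LYZ, and their part in the results below was not tested.

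Most translation factor genes did not pass the test, and those that did went in both directions, often within a single complex. Among the genes called, EIF4G3, EIF4A2, EIF1 and EIF2S3 had the deepest falls in 3D, and EEF1A2, EIF5A, EIF2B1 and EIF5AL1 the largest rises. Of the 60 genes, 59 passed the low-count filter, and EIF4EBP3 did not. By edgeR's quasi-likelihood test with Benjamini-Hochberg adjustment over 15314 genes, 11 were higher and 7 lower in 3D at an adjusted p under 0.05, and 41 were not called. That is 30.5% called, where 36.6% of all genes tested were called (19% higher and 17.6% lower). Among protein-coding genes with a mean of 10 CPM or more, 43% were called (20.8% higher and 22.2% lower). The median log2 fold change, 3D over 2D, was 0.06 for the factor genes and 0.02 for all genes. The values of the groups did not overlap for 30 of 59 factor genes (50.8%), beside 50.5% of all genes. The factor genes took 2.21%, 2.18% and 2.24% of the counts in the 3D libraries, and 2.42%, 2.37% and 2.11% in the 2D libraries. In these bulk samples fewer cells making a message and less message per cell cannot be told apart.

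By complex, the medians of log2 fold change ran from −0.45 for eIF2 (0 higher and 2 lower of 4 tested) to 0.51 for eIF5A (2 higher and 0 lower of 3). Both sets count a near-identical copy, EIF2S3L or EIF5AL1, as a gene of its own. With copies summed, the median was −0.16 for eIF2 (0 higher and 1 lower of 3). For eIF5A it was then 0.07 (1 higher and 0 lower of 2), so these 2 extremes rest on the copies. For eIF2B the median was 0.30 (2 higher and 0 lower of 5), for eIF3 0.14 (2 and 1 of 14), and for eIF4F with its helpers 0.07 (3 and 3 of 11). The factors of start site selection and initiator tRNA handling had a median of −0.20 (1 and 1 of 9). None of the 3 tested 4E-binding proteins was called (median −0.22), nor was eIF6. The 5 eEF1 genes had a median of 0.10, with 1 higher, and neither eEF2 with its kinase nor the 2 methyltransferases of elongation factors were called. The plot of fold changes by complex shows called genes of both directions in eIF3, in eIF4F with its helpers and in start site selection.

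**Figure D1:**
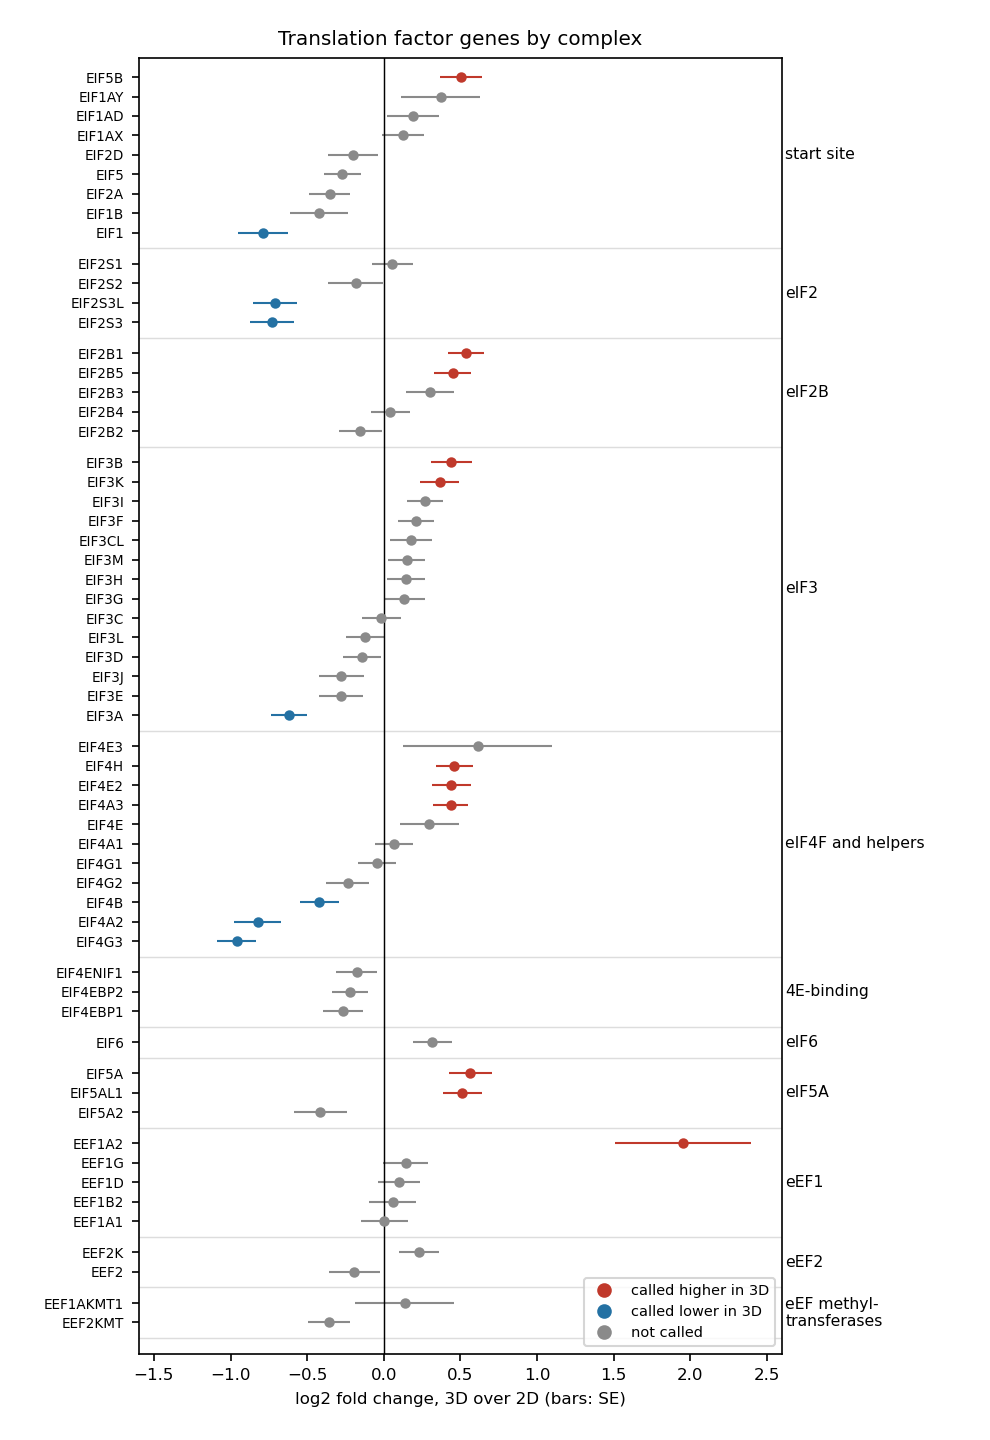
Log2 fold change, 3D over 2D, of the 59 tested translation factor genes (points) with its standard error (bars), grouped by complex down the page; red points are called higher and blue points called lower in 3D. EEF1A2 stands farthest to the right at 1.95 and EIF4G3 farthest to the left at −0.96, while 41 grey points are not called.

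In start site selection, EIF1, which keeps the scanning ribosome open until the start codon is found (chromosome 17, 41688885 to 41692669, hg38), fell 1.73-fold in 3D. It had 457, 628 and 689.6 CPM in the 3D libraries, against 1085, 1054 and 923 CPM in the 2D libraries. All 3D libraries lay below all 2D libraries (log2 fold change −0.79, SE 0.16, adjusted p = 0.00363), and the call was kept in all 19 alternatives, at a log2 fold change between −0.92 and −0.62. Its close paralogue EIF1B had 40.5, 70.6 and 71.1 CPM in the 3D libraries, against 85.1, 82.5 and 77.4 CPM in the 2D libraries; the groups did not overlap, but the change was not called (log2 fold change −0.42, SE 0.19, adjusted p = 0.104). It was called with transcript length and GC content corrected (log2 −0.57, adjusted p = 0.0190).

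EIF5B, the GTPase that joins the large ribosomal subunit, went the other way. It had 273, 325 and 384 CPM in the 3D libraries, against 230.5, 227 and 235 CPM in the 2D libraries, so that each 3D library lay above each 2D library while the 3D libraries also differed more among themselves (log2 fold change 0.50, SE 0.14, adjusted p = 0.0147). The call was lost without 2D replicate 1 (adjusted p = 0.0653), without 2D replicate 2 (0.0642) and without 3D replicate 3 (0.0587), where the log2 fold change was 0.37 to 0.50. EIF5, which makes eIF2 hydrolyse its GTP once the start codon is reached, had 199, 239.8 and 225 CPM in the 3D libraries, against 258, 267 and 276 CPM in the 2D libraries. Its groups did not overlap and its difference was not called (log2 fold change −0.27, SE 0.12, adjusted p = 0.0971). EIF1AX, a scanning factor encoded on the X chromosome, had 108, 152 and 138 CPM in the 3D libraries, against 119, 120.5 and 125 CPM in the 2D libraries. Its groups overlapped (log2 fold change 0.13, SE 0.14, adjusted p = 0.491). After the length and GC content correction it was called at a log2 of 0.44 (adjusted p = 0.00538). EIF1AY, its Y-encoded copy, had 16.6, 34.8 and 35.8 CPM in the 3D libraries, against 23.4, 24.8 and 19.6 CPM in the 2D libraries. Only 3D replicate 1 lay below the 2D libraries (log2 fold change 0.37, SE 0.26, adjusted p = 0.286), and without that library EIF1AY was called at a log2 of 0.63 (adjusted p = 0.00598). The other genes of this set, EIF2A, EIF2D and EIF1AD, had log2 fold changes of −0.35, −0.20 and 0.19 and were not called. EIF2A was called by DESeq2 (log2 −0.36, adjusted p = 0.0464), with protein-coding genes only (0.0494), without 2D replicate 3 (0.0497) and with 3D replicate 2 left out (0.0209).

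Of the eIF2 subunits, the gamma genes were called and the alpha and beta genes were not. EIF2S3, the gamma subunit that binds GTP and the initiator tRNA (chromosome X, 24054716 to 24077972, hg38), fell 1.66-fold in 3D. It had 126, 177 and 163 CPM in the 3D libraries, against 280.2, 242 and 251 CPM in the 2D libraries. The highest 3D library was well below the lowest 2D library (log2 fold change −0.73, SE 0.14, adjusted p = 0.00250). EIF2S3L, a near-identical copy on chromosome 12, had 31.9, 38.6 and 27.1 CPM in the 3D libraries, against 55.6, 50.4 and 53.8 CPM in the 2D libraries (log2 fold change −0.71, SE 0.15, adjusted p = 0.00332). Reads of these copies may have been split between them by the counting. With the copies summed the log2 fold change was −0.73 (edgeR adjusted p = 0.00207). EIF2S1, the alpha subunit whose phosphorylation shuts down initiation under stress, had 67.2, 92.8 and 80.4 CPM in the 3D libraries, against 79.6, 77.4 and 74.9 CPM in the 2D libraries, and the 2D libraries lay within the range of the 3D libraries (log2 fold change 0.05, SE 0.13, adjusted p = 0.777). EIF2S2, the beta subunit, was not called either, with 164 to 289 CPM in the 3D libraries against 239 to 276 CPM in the 2D libraries (log2 −0.18). Per kilobase of transcript, the alpha, beta and gamma messages stood at 33.5, 84.1 and 54.3 CPM in 3D, against 32.3, 95.6 and 90.3 CPM in 2D. The gamma message was thus close to the beta message in 2D and below it in 3D on this scale, with copies left out. EIF2S3L, not in this gamma value, stood at 20.3 CPM per kilobase in 3D against 33.3 CPM in 2D. The 4 counted EIF2S2 pseudogenes took 37.3%, 30.9% and 29.8% of the reads of gene and copies in the 3D libraries. In the 2D libraries they took 29.9%, 31.1% and 31.8%. The comparison of subunits rests on this split of reads.

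Both called genes of eIF2B, the exchange factor that reloads eIF2 with GTP, were higher in 3D. EIF2B1, the regulatory alpha subunit (chromosome 12, 123620406 to 123633767, hg38), rose 1.45-fold. It had 51.4, 49.5 and 47.7 CPM in the 3D libraries, against 32.9, 35.6 and 33.9 CPM in the 2D libraries, with little spread in either group (log2 fold change 0.54, SE 0.12, adjusted p = 0.00486). EIF2B1 was the only gene called higher whose call was kept in all 19 alternatives, at a log2 fold change between 0.50 and 0.56. It overlaps DDX55 and GTF2H3 on the opposite strand, and without strand information the reads of the overlap cannot be assigned. EIF2B5, the catalytic epsilon subunit, had 55.3, 54.9 and 64.9 CPM in the 3D libraries, against 44.8, 40.7 and 42.7 CPM in the 2D libraries (log2 fold change 0.45, SE 0.12, adjusted p = 0.0148). Its groups did not overlap, and the call was lost without 2D replicate 2 (adjusted p = 0.0792), without 2D replicate 3 (0.0562) and without 3D replicate 3 (0.0549). EIF2B2, EIF2B3 and EIF2B4, which encode the beta, gamma and delta subunits, had log2 fold changes of −0.15, 0.30 and 0.04 and were not called.

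Among the 14 genes of eIF3, the large scaffold that holds the small subunit ready for initiation, EIF3A fell and EIF3B and EIF3K rose. EIF3A, the largest subunit (chromosome 10, 119033670 to 119080824, hg38), had 366, 362 and 391 CPM in the 3D libraries, against 601, 569 and 550.2 CPM in the 2D libraries. Each 3D library was far below each 2D library (log2 fold change −0.62, SE 0.12, adjusted p = 0.00226). The transcript of EIF3A is long, at 6646 bases, and with length and GC content corrected the log2 fold change was −0.29 (adjusted p = 0.0798), so that the call was lost. EIF3B, which binds EIF3A in the core of the complex, had 410.0, 318 and 374 CPM in the 3D libraries, against 293, 257 and 261 CPM in the 2D libraries (log2 fold change 0.44, SE 0.13, adjusted p = 0.0224). Its groups did not overlap, but 3D replicate 2 lay near the 2D libraries, and the call was lost in 7 of 19 alternatives. Among these were the length and GC content correction (log2 0.29, adjusted p = 0.0611), the runs without 2D replicate 1 (0.0518), 2D replicate 2 (0.107), 2D replicate 3 (0.0829) and 3D replicate 3 (0.0558), and the run without the doubted libraries (0.144).

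EIF3K, a small peripheral subunit, passed narrowly. It had 89.7, 91.2 and 97.7 CPM in the 3D libraries, against 79.6, 75.3 and 61.5 CPM in the 2D libraries (log2 fold change 0.37, SE 0.13, adjusted p = 0.0423), and the call was lost in 10 of 19 alternatives. With length and GC content corrected its log2 fold change was 0.01 (adjusted p = 0.973), and without 2D replicate 3 it was 0.25 (adjusted p = 0.208). The other runs without a library that lost the call left out 2D replicate 1 (0.0645), 2D replicate 2 (0.103), 3D replicate 2 (0.0611) or 3D replicate 3 (0.115). EIF3C, another core subunit, had 547, 578 and 572 CPM in the 3D libraries, against 627, 578 and 511 CPM in the 2D libraries. Its groups overlapped and their means were nearly equal (log2 fold change −0.02, SE 0.13, adjusted p = 0.938), and its near-identical copy EIF3CL had a log2 fold change of 0.18. The other 9 eIF3 genes lay between −0.28 (EIF3E and EIF3J) and 0.27 (EIF3I), and none was called. EIF3I was called without 3D replicate 1 (log2 0.32, adjusted p = 0.0371), and EIF3H and EIF3M with length and GC content corrected (log2 0.36 and 0.47, adjusted p = 0.0256 and 0.0116). Per kilobase of transcript the eIF3 messages spanned 36.4 CPM (EIF3M) to 181 CPM (EIF3C) in 3D and 32.8 CPM (EIF3M) to 205 CPM (EIF3E) in 2D. The low place of EIF3M and its corrected value both rest on the transcript of 5051 bases taken for it. Without length scaling EIF3K was the lowest eIF3 message in both groups, its means being 92.9 (3D) and 72.1 CPM (2D). The means of EIF3M were then 184 (3D) and 166 CPM (2D).

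The cap-binding complex eIF4F and its helpers held both the deepest fall and several rises. EIF4G3, a scaffold paralogue that bridges the cap-binding protein and the helicase (chromosome 1, 20806292 to 21176889, hg38), fell 1.94-fold. It had 49.0, 54.5 and 42.8 CPM in the 3D libraries, against 96.2, 99.4 and 88.9 CPM in the 2D libraries. The 3D libraries reached at most 54.5 CPM, well under the lowest 2D library (log2 fold change −0.96, SE 0.13, adjusted p = 0.000286), and the call was kept in all 19 alternatives, at a log2 fold change between −1.05 and −0.69. EIF4A2, one of the paralogous RNA helicases that unwind messenger RNA ahead of the scanning ribosome (chromosome 3, 186783205 to 186789901, hg38), fell 1.77-fold. It had 215, 283 and 187 CPM in the 3D libraries, against 417, 391 and 404 CPM in the 2D libraries. The groups were far apart although 3D replicate 2 was clearly above the other 3D libraries (log2 fold change −0.82, SE 0.15, adjusted p = 0.00193), and the call was kept in all 19 alternatives. EIF4B, a cofactor of the helicase, had 546, 604 and 529 CPM in the 3D libraries and 794, 736 and 715 CPM in the 2D libraries (log2 fold change −0.42, SE 0.13, adjusted p = 0.0221). Its groups did not overlap, but the call was lost in 7 of 19 alternatives, among them the runs without 2D replicate 1 (adjusted p = 0.104), 2D replicate 2 (0.0594) and 3D replicate 3 (0.0622) and the length and GC content correction (0.0557). EIF4B has 5 counted pseudogenes, and with these copies summed the log2 fold change was −0.46 (adjusted p = 0.0168).

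EIF4H, another helicase cofactor, rose 1.38-fold. It had 330.2, 341 and 333 CPM in the 3D libraries, against 265, 219 and 246 CPM in the 2D libraries, so the 3D libraries lay close together and above every 2D library (log2 fold change 0.46, SE 0.12, adjusted p = 0.0116). The call was lost without 2D replicate 2 (log2 0.37, adjusted p = 0.0847) and without the doubted libraries (log2 0.39, adjusted p = 0.0538). With 2 pseudogenes summed the log2 fold change was 0.42 (adjusted p = 0.0190). EIF4E2, a cap-binding protein that can repress the messages it binds, had 65.3, 83.2 and 77.3 CPM in the 3D libraries, against 54.5, 58.0 and 53.9 CPM in the 2D libraries (log2 fold change 0.44, SE 0.13, adjusted p = 0.0177). Its groups were apart, and the call was lost without 2D replicate 1, 2 or 3 (adjusted p = 0.0803, 0.0533 and 0.0737) and after the length and GC content correction (log2 0.22, adjusted p = 0.131). EIF4A3, a helicase of the same family that works in the exon junction complex, had a log2 fold change of 0.44 (adjusted p = 0.0111) from 127 ± 6.59 CPM in 3D and 94.0 ± 5.53 CPM in 2D (SD, n = 3 each). Its call was lost when 2D replicate 2 (adjusted p = 0.0663) or 2D replicate 3 (0.0558) was left out. The EIF4A3 call was also lost with the replicate block plus the length and GC content correction (0.0719).

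The genes of the major helicase, the scaffolds EIF4G1 and EIF4G2 and the cap-binding protein did not pass the test. EIF4A1, the major helicase, had 676, 726 and 726 CPM in the 3D libraries, against 702, 697 and 628 CPM in the 2D libraries (log2 fold change 0.07, SE 0.12, adjusted p = 0.688). EIF4G1, the major scaffold, had 498, 445 and 422 CPM in the 3D libraries, against 483, 469 and 453 CPM in the 2D libraries (log2 fold change −0.04, SE 0.12, adjusted p = 0.813). EIF4G2, a scaffold without the site for eIF4E, had 569.6, 712 and 555 CPM in the 3D libraries, against 750.5, 672 and 741 CPM in the 2D libraries (log2 fold change −0.24, SE 0.14, adjusted p = 0.207). For these 3 genes the groups overlapped. EIF4E, the cap-binding protein itself, had 45.1, 82.0 and 77.1 CPM in the 3D libraries, against 55.0, 53.7 and 57.9 CPM in the 2D libraries. Here 3D replicate 1 was the lowest of all libraries and the other 3D libraries were the highest (log2 fold change 0.30, SE 0.19, adjusted p = 0.251); without 3D replicate 1 EIF4E was called at a log2 of 0.51 (adjusted p = 0.00451), and after the length and GC content correction at 0.82 (adjusted p = 0.0119). That correction took an EIF4E transcript of 11523 bases, where the median of all tested genes was 2685 bases, and the corrected value rests on this length. Whether these cells use that transcript was not tested. The pseudogene EIF4EP2 took 33.7%, 27.5% and 24.1% of the reads of gene and copy in the 3D libraries, against 29.8%, 32.0% and 31.4% in the 2D libraries. Summed with it, EIF4E had a log2 fold change of 0.23 and was not called. EIF4E3 was near the limit of detection at 9, 18 and 6 counts in the 3D libraries and 11, 9 and 7 counts in the 2D libraries, so that a difference was not detectable at this depth.

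**Figure D2:**
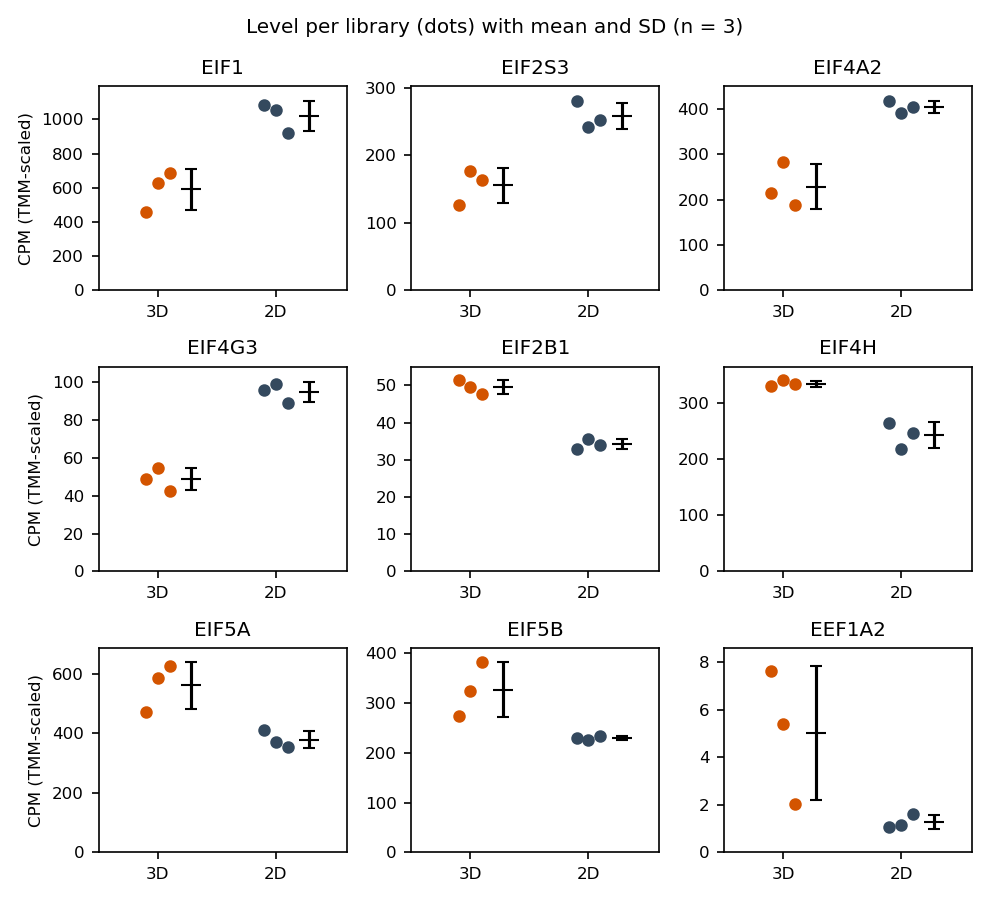
Level of 9 translation factor genes in TMM-scaled CPM (linear axes from 0) in each 3D library (orange) and each 2D library (dark blue), with the mean and SD of 3 libraries beside the dots. EIF1, EIF2S3, EIF4A2 and EIF4G3 lie lower in all 3D libraries, and EIF2B1, EIF4H, EIF5A, EIF5B and EEF1A2 higher, with EEF1A2 spread from 2.04 to 7.64 CPM in 3D.

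In the helicase and in the scaffold, the paralogue with the smaller part of the pair was called lower and the other was not called. Per kilobase of transcript, EIF4A2 made up 22.6%, 26.3% and 19.1% of EIF4A1 plus EIF4A2 in the 3D libraries, and 35.2%, 33.9% and 37.0% in the 2D libraries. EIF4G3 made up 8.56%, 10.4% and 8.80% of EIF4G1 plus EIF4G3 in the 3D libraries, and 15.9%, 16.8% and 15.7% in the 2D libraries. Neither pair's shares overlapped between the groups, and each share averaged lower in 3D, at 22.7 ± 3.60% against 35.4 ± 1.56% for EIF4A2 and 9.26 ± 1.02% against 16.1 ± 0.552% for EIF4G3 (SD, n = 3 each). The exact two-sided permutation test gave p = 0.1 for both, the smallest p that 3 against 3 libraries allow, so this test could not pass 0.05. EIF1B made up more of its pair with EIF1 in 3D, at 17.0%, 20.6% and 19.2% against 15.3%, 15.3% and 16.2% in 2D (exact p = 0.1). The share of EIF4E2 in its pair with EIF4E overlapped between the groups (exact two-sided permutation p = 0.4), and so did that of EIF1AY with EIF1AX (0.6). In all, 7 pairs were compared, and the direction of each was the same without the length scaling. This is no separate check, because a fixed length per gene cannot change the order of the libraries within a pair.

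**Figure D3:**
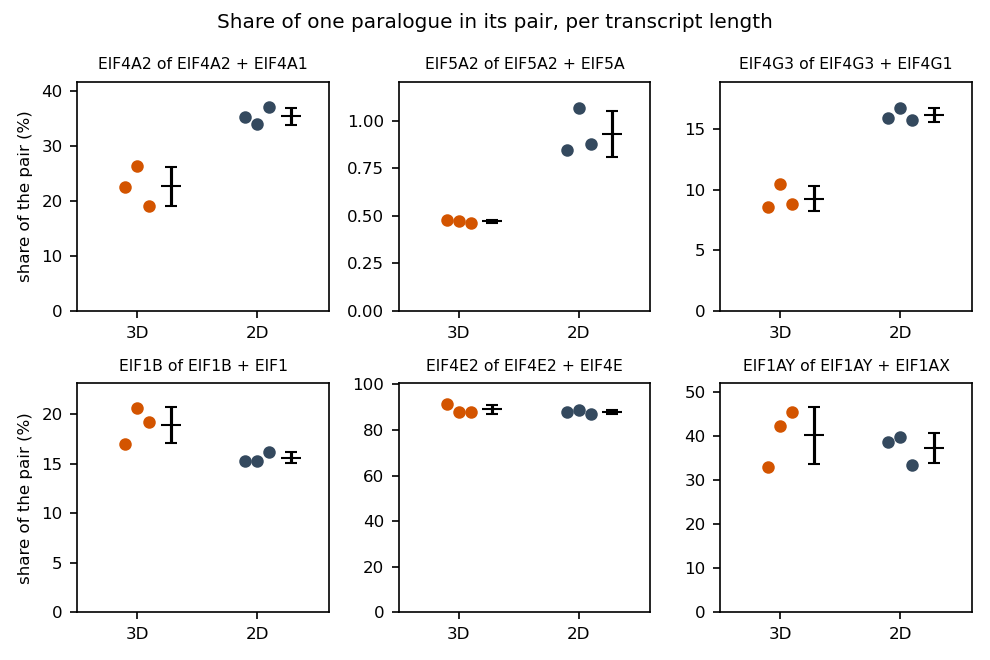
Share of one paralogue in the summed level of its pair, in percent of CPM per kilobase of transcript, for 6 pairs in each 3D library (orange) and each 2D library (dark blue), with mean and SD of 3 libraries. The shares of EIF4A2, EIF4G3 and EIF5A2 are lower and that of EIF1B higher in all 3D libraries, while those of EIF4E2 and EIF1AY overlap. The height of each share depends on the transcript lengths taken, such as 11523 bases for EIF4E.

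The proteins that hold eIF4E back from the scaffold were not called. EIF4EBP1, the classical mTOR target among them, had 69.5, 56.7 and 74.1 CPM in the 3D libraries, against 85.9, 80.3 and 74.4 CPM in the 2D libraries, without overlap (log2 fold change −0.26, SE 0.13, adjusted p = 0.137). After the length and GC content correction it was called lower (log2 −0.78, adjusted p = 0.000431); its transcript is short, at 1020 bases, with 65.5% GC. EIF4EBP2 had 161, 162 and 150.3 CPM in the 3D libraries, against 169, 204 and 179 CPM in the 2D libraries, again without overlap and not called (log2 fold change −0.22, SE 0.12, adjusted p = 0.166). EIF4ENIF1, which carries eIF4E into the nucleus, had a log2 fold change of −0.18. EIF4EBP3 was not tested, at 3, 8 and 23 counts in the 3D libraries and 9, 5 and 12 counts in the 2D libraries, and its locus lies within the read-through gene ANKHD1-EIF4EBP3. EIF6, which keeps the ribosomal subunits apart until the large subunit is mature, had 244, 259.5 and 302 CPM in the 3D libraries, against 230.4, 217 and 199 CPM in the 2D libraries. All 3D libraries lay above the 2D libraries without a call (log2 fold change 0.32, SE 0.13, adjusted p = 0.0698), and without 3D replicate 1 EIF6 was called (log2 0.37, adjusted p = 0.0339). After the length and GC content correction its direction turned (log2 −0.08, adjusted p = 0.621).

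EIF5A, the hypusine-bearing factor that helps the ribosome through difficult peptide bonds such as proline runs (chromosome 17, 7306999 to 7312464, hg38), rose 1.48-fold. It had 473, 585 and 625 CPM in the 3D libraries, against 410.1, 371 and 355 CPM in the 2D libraries, each 3D library being above each 2D library (log2 fold change 0.57, SE 0.14, adjusted p = 0.00870). With length and GC content corrected the log2 fold change was 0.25 and no longer called (adjusted p = 0.145). EIF5AL1, an intronless copy on chromosome 10 whose reads may be those of EIF5A, had a log2 fold change of 0.51 (adjusted p = 0.00919). That call was lost without 2D replicate 2 (adjusted p = 0.0624) and without the doubted libraries (0.0590). With these copies summed the change was 0.56 (adjusted p = 0.00807). Under the length and GC content correction EIF5AL1 went up instead and stayed called (log2 0.64, adjusted p = 0.00273). The transcripts taken were 1336 bases with 55.8% GC for EIF5A and 3840 bases with 45.6% GC for EIF5AL1. The corrected values of both genes rest on these transcripts. EIF5A2, the less abundant paralogue, had 9.52, 11.7 and 12.2 CPM in the 3D libraries, against 14.7, 16.8 and 13.2 CPM in the 2D libraries. It lay lower in all 3D libraries but was not called (log2 fold change −0.41, SE 0.17, adjusted p = 0.0810), and its share of EIF5A plus EIF5A2 per kilobase was 0.479%, 0.476% and 0.463% in the 3D libraries, against 0.850%, 1.07% and 0.878% in the 2D libraries (exact two-sided permutation p = 0.1). After the length and GC content correction EIF5A2 had a log2 fold change of −0.02 (adjusted p = 0.953), so that most of the gap between EIF5A2 and EIF5A was gone, whereas EIF4A2 and EIF4G3 kept −0.80 and −0.69.

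EEF1A1 and EEF2, the most abundant members, were not called. EEF1A1, which delivers aminoacyl-tRNA to the ribosome (chromosome 6, 73515750 to 73523798, hg38), had 6673, 7512 and 7653 CPM in the 3D libraries, against 7819, 7349.6 and 6622 CPM in the 2D libraries; the groups overlapped over almost their whole range (log2 fold change 0.00, SE 0.15, adjusted p = 0.990). Besides the gene itself, 20 EEF1A1 pseudogenes were counted, which took 44.8%, 36.9% and 36.4% of the reads of gene and copies in the 3D libraries, against 38.9%, 39.2% and 38.8% in the 2D libraries. With the copies summed the log2 fold change was 0.01. EEF2, which moves the ribosome by a codon, had 3658, 3189.9 and 3310.4 CPM in the 3D libraries, against 4201, 4318 and 3091 CPM in the 2D libraries, with overlap (log2 fold change −0.19, SE 0.17, adjusted p = 0.388). EEF1B2, an exchange subunit of eEF1, had 390.2, 451 and 512 CPM in the 3D libraries, against 470.2, 472 and 359 CPM in the 2D libraries, likewise overlapping (log2 fold change 0.06, SE 0.15, adjusted p = 0.794). EEF1D and EEF1G, the remaining subunits of the exchange complex, had log2 fold changes of 0.10 and 0.14 and were not called.

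Per kilobase of transcript EEF1A1 reached 3161 CPM in 3D against 3154 CPM in 2D, and EEF2 1070.2 CPM in 3D against 1223 CPM in 2D. EEF1B2 stood at 534 CPM per kilobase in 3D against 514 CPM in 2D, EEF1G at 456 CPM in 3D against 413 CPM in 2D, and the initiation factor EIF4A1 at 404 CPM in 3D against 385 CPM in 2D. EIF5A stood at 419.6 CPM per kilobase in 3D, above EIF4A1, and at 284 CPM in 2D, below it. EIF1 reached 254 CPM per kilobase in 3D against 438 CPM in 2D, where it was the most abundant initiation factor message. These levels rest on the transcript taken for each gene.

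EEF1A2, the paralogue of EEF1A1 normally found in muscle and neurons (chromosome 20, 63488013 to 63499316, hg38), had the largest fold change of the class, at a low level. It had 7.64, 5.43 and 2.04 CPM in the 3D libraries, against 1.06, 1.15 and 1.61 CPM in the 2D libraries, which rest on 77, 84 and 29 counts in 3D and 17, 19 and 29 counts in 2D. The groups did not overlap, but 3D replicate 3 was close to the highest 2D library. The fitted change was 3.87-fold (log2 fold change 1.95, SE 0.44, adjusted p = 0.00621). With both doubted libraries left out (3D replicate 1, 2D replicate 2), the log2 fold change was 1.46 and not called (adjusted p = 0.0510). Per kilobase EEF1A2 made up only 0.131%, 0.0826% and 0.0305% of EEF1A1 plus EEF1A2 in the 3D libraries and 0.0156%, 0.0179% and 0.0278% in the 2D libraries (exact two-sided permutation p = 0.1). EEF2K, the kinase that stops eEF2 under energy stress, had 69.7, 56.4 and 56.7 CPM in the 3D libraries, against 51.1, 48.3 and 56.5 CPM in the 2D libraries. Its groups overlapped (log2 fold change 0.23, SE 0.13, adjusted p = 0.195). After the length and GC content correction it was called at a log2 of 0.42 (adjusted p = 0.0105). The methyltransferase genes EEF2KMT and EEF1AKMT1 had log2 fold changes of −0.36 and 0.14, and EEF2KMT was called with that correction (log2 −0.53, adjusted p = 0.00698).

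The bases at the transcription start were read from RefSeq promoter sequences (GRCh38.p14) for the 47 members with an entry, to see which messages open with the pyrimidine run through which mTOR acts. The run was defined as a C at the first transcribed base followed by at least 4 bases that are each C or T, on the transcribed strand. A gene with several entries counted as having the run if any of them had it. Shares of genes are therefore not on the same scale as the share of entries. EEF1B2 has another start without the run (chr2:206159594-206159623), which is not shown. Of the 47 genes 12 had it (25.5%), against 7.02% of the 11264 genes of the table with an entry and 4.07% of all 35116 entries; this is a description, with no test. The windows shown run from 15 bases before the start to 15 bases from it on, 5′ to 3′, with the run in capitals. EEF1A1, EEF2, EEF1B2 and EIF3F were not called, EIF3K rose, EIF4A2, EIF4B and EIF2S3 fell, and EIF4A1 and EIF1 are shown as starts without the run.
EEF1A1 (chr6:73521018-73521047, minus strand): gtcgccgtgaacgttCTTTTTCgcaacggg
EEF2 (chr19:3985449-3985478, minus strand): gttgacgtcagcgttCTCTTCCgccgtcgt
EEF1B2 (chr2:206159880-206159909, plus strand): ccggtctcttcgggtCCTTTTTCCTCTCTT
EIF3F (chr11:7987322-7987351, plus strand): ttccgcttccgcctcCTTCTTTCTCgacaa
EIF3K (chr19:38619173-38619202, plus strand): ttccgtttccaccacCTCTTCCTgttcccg
EIF4A2 (chr3:186783562-186783591, plus strand): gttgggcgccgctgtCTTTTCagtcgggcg
EIF4B (chr12:53006441-53006470, plus strand): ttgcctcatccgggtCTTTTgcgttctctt
EIF2S3 (chrX:24054941-24054970, plus strand): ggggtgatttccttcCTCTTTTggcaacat
EIF4A1 (chr17:7572810-7572839, plus strand): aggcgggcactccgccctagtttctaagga
EIF1 (chr17:41688870-41688899, plus strand): aggcaccgcccctctgccccagtcactgag
Of the 12 genes with the run, 1 was called higher (EIF3K) and 3 lower (EIF2S3, EIF4A2 and EIF4B), and the median log2 fold change was −0.17. The 12 also include EIF2A, EIF2D, EIF3D and EIF3M. Of the other 34 tested members with an entry, 9 were called higher and 2 lower, with a median of 0.17, and of the 13 without an entry 1 was higher and 2 lower, with a median of −0.12. Over all tested genes, 726 had the run, of which 154 were higher and 133 lower with a median of 0.04, beside 1841 higher and 1794 lower of 9239 without it, with a median of 0.00. EIF4A2 opens with the run and EIF4A1 does not, and EIF4A2 was the one that fell, whereas EIF1 fell without it. The run is a match of letters at an annotated start, and these values are of message level, not of translation.

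**Figure D4:**
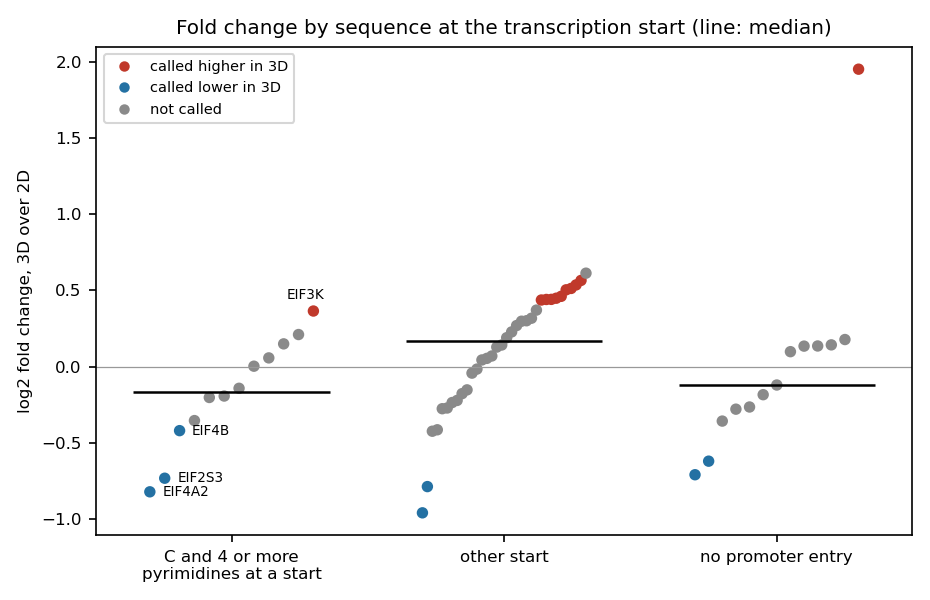
Log2 fold change, 3D over 2D, of the 59 tested members (points), split by the sequence at the transcription start, with the median of each set as a line. The 12 genes with C and at least 4 pyrimidines at a start have a median of −0.17, the 34 with another start 0.17 and the 13 without a promoter entry −0.12, and red and blue points (called genes) occur in all sets.

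Median GC content was higher for the members called higher than for those called lower, while median length was longest for those called lower and shortest for those not called; neither was tested. The median transcript was 2477 bases with 52.7% GC for the 11 genes called higher, 2858 bases with 43.2% GC for the 7 called lower and 2303 bases with 49.0% GC for the 41 not called, beside 2685 bases and 49.4% GC for all tested genes. With a loess correction for both, 12 members were called higher and 8 lower, beside 17% and 17.7% of all genes (34.7% in either direction), and the median log2 fold change was −0.06. Of the 18 genes called without the correction, 6 lost their call (EIF3A, EIF3B, EIF3K, EIF4B, EIF4E2 and EIF5A), while EIF1, EIF2S3, EIF2S3L, EIF4A2 and EIF4G3 stayed called lower. Whether length or base composition has a part in the other differences was not tested.

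**Figure D5:**
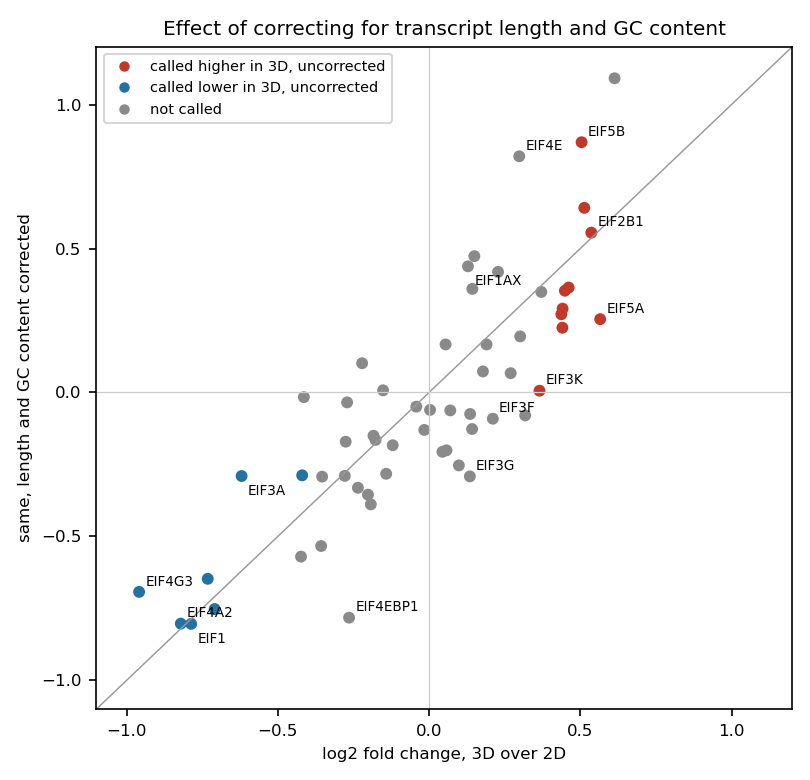
Log2 fold change, 3D over 2D, of each tested member as fitted (x axis) against the same with transcript length and GC content corrected (y axis); the line marks equal values, colours give the call without the correction, and EEF1A2 (1.95 and 1.54) lies outside the axes. EIF5A and EIF3K lie below the line at 0.25 and 0.01 after correction, and EIF4E and EIF5B above it at 0.82 and 0.87, the value of EIF4E resting on a transcript of 11523 bases.

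Genes that control these factors, from lists of 76 symbols outside the symbol rule, included 73 tested genes. Of these 8 were higher and 17 lower (34.2% called, beside 36.6% of all genes), with a median log2 fold change of −0.11. Of 10 eIF2 kinase and phosphatase genes, 5 were lower and 0 higher. PPP1R15A and PPP1R15B, the subunits that direct the phosphatase to eIF2, had 41.4, 43.2 and 97.0 CPM and 41.9, 56.1 and 58.4 CPM in the 3D libraries, against 114, 167 and 108 CPM and 95.5, 111 and 106 CPM in the 2D libraries. Both fell without overlap (log2 −1.09, SE 0.34, adjusted p = 0.0398, and −1.0, SE 0.14, adjusted p = 0.000449). DNAJC3, NCK1 and the kinase gene EIF2AK3 were lower too (log2 −0.82, −0.57 and −0.52). The groups overlapped for NCK1, whose call (adjusted p = 0.0408) was lost without 2D replicate 2 (0.115), 2D replicate 3 (0.139), 3D replicate 1 (0.0858) or 3D replicate 3 (0.0802). Leaving out 3D replicate 3, the highest 3D library for PPP1R15A, gave that gene an adjusted p of 0.000795, and leaving out any one of the other five libraries gave 0.066 to 0.132. The PPP1R15A call was also lost with the replicate block (adjusted p = 0.0938) and with no low-count filter (0.0727). EIF2AK3 was not called after the length and GC content correction (log2 −0.31, adjusted p = 0.101). The kinase gene EIF2AK2, not called without that correction, was called higher with it.

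Of 19 genes of mTORC1, S6 kinase and eIF4E control, 6 were lower and 2 higher. SESN2, which restrains mTORC1 when amino acids are short, and BTRC, a ubiquitin ligase subunit, fell by 0.96 and 0.64 on the log2 scale (adjusted p = 0.00194 and 0.00535), and MTOR itself fell by 0.57 (adjusted p = 0.00877). MLST8, an mTOR partner, and DDIT4, an mTORC1 inhibitor, had log2 fold changes of 0.47 and 0.44 (adjusted p = 0.0201 and 0.0321). Of 11 poly(A)-binding and cap helper genes, 2 were lower, LARP4 (log2 −0.81) and CTIF (−0.54), and 1 higher, NCBP2 (0.38). Of 9 termination and recycling genes, N6AMT1 (log2 −0.97) and GSPT1 (−0.46), the partner of the release factor, were lower and TRMT112 (0.35, adjusted p = 0.0496) higher. The enzymes that modify eIF5A also differed in direction. Of 11 hypusine and diphthamide genes, DOHH, which completes hypusine on eIF5A, and SRM, which makes spermidine, were higher (log2 0.62 and 0.58), and DHPS, which starts hypusine, was lower (−0.47). Of 13 mitochondrial and selenocysteine factors, EEFSEC and TUFM were higher (log2 0.46 and 0.42) and SECISBP2 lower (−0.59). The number called higher in these lists was 1 to 8 when single libraries were left out, lowest without 2D replicate 3, with 2 without 2D replicate 1 or 2D replicate 2, 5 without 3D replicate 2 and 4 without 3D replicate 3. In the same runs the number of all genes called higher also fell, from 2910 to between 1938 (without 2D replicate 1) and 2817 (without 3D replicate 1). After the length and GC content correction, 7 of the 8 higher genes were no longer called: MLST8, DDIT4, TRMT112, DOHH, SRM, EEFSEC and TUFM then had log2 fold changes of 0.08, 0.14, 0.05, 0.20, 0.12, 0.16 and 0.17.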

How the data were processed

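The series holds RNA-seq of HepG2 cells from 3 libraries of 3D bioreactor culture and 3 of 2D plate culture, grouped by sample title. The submitters' processing notes name the aligner STAR 2.4.1d, the Partek software and the build hg38. For annotation, counting rules and strand handling, the sources used here give nothing. The table deposited by the authors holds estimated counts per gene, not scaled, of which 61.7% are whole numbers, and its lowest gene total over the 6 libraries is 10. Rounding these estimated counts to whole numbers moved a library total by at most 25.0.

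Tests were run with edgeR 4.0.16 in R 4.3.3: the filter of filterByExpr, TMM factors, a quasi-likelihood fit (robust) of all 6 libraries on culture alone, and Benjamini-Hochberg adjustment over 15314 genes, with a call at an adjusted p under 0.05. Every adjusted p is from edgeR unless another tool is named. The SE of a log2 fold change comes from its F statistic. Libraries of the same group differed by more than sampling noise (chi-square per degree of freedom 10.3 to 26.7). A count of 3 corresponds to 0.167 to 0.315 CPM.

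The members and lists were chosen with earlier results of these data known. Values in every library are given for 28 members fixed by name and for the called member with the largest rise and fall in each complex. Control genes are named up to 2 per list and direction by size of change, at 1 CPM or more; MTOR, DNAJC3, NCK1 and EIF2AK3, and the library values of EIF1B, EIF2S3L, EIF3K and EIF4B, were added after they were seen. Lengths and GC contents of transcripts were taken from GENCODE 29 (16207 genes matched by symbol and 289 through an older symbol; 90.0% of tested genes), using the best-ranked APPRIS transcript, then the best support level, then the middle length. This choice of transcript was revised after values had been seen. Alternatives were DESeq2 1.42.0, limma-voom (limma 3.58.1), other scalings and filters, protein-coding genes only, a replicate block, a loess correction for length and GC content (span 0.5), and leaving out libraries. Summing gene copies, and TMM factors computed with mitochondrial genes and the 50 most abundant ones left out, were added after seeing the data. On simulated data of 3 against 3 libraries with 15125 to 15171 genes, edgeR found 21.9% of simulated 1.5-fold changes, 83.6% of 2-fold changes and 100% of 4-fold changes, with 20 of 430 calls false. Under these settings many 1.5-fold changes were thus missed. The simulation gave all genes the same dispersion and placed the changes in genes above 1 CPM in 2D. Its rates therefore need not hold for the members, of which some with changes under 1.5-fold were called, such as EIF2B1. How many changes of that size were missed among the members was not tested.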

Additional observations from a re-analysis of the deposited data

How the results depend on the processing

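Of the factor genes, 1 of 11 called higher (EIF2B1), 5 of 7 called lower (EIF1, EIF2S3, EIF2S3L, EIF4A2 and EIF4G3) and 29 of 41 not called kept their call in every alternative in which they were tested, 19 at most. Leaving out single libraries gave 3 to 15 members called higher (3 without 2D replicate 2, 6 without 2D replicate 3, 7 without 2D replicate 1 or 3D replicate 3, and 15 without 3D replicate 1), 6 to 8 lower, and 1 to 8 control genes higher. In these runs 3766 (without 2D replicate 1) to 5609 (without 3D replicate 1) of all genes were called, beside 5607 with all libraries. Whether calls of members were lost because fewer libraries were tested was not tested. The control genes called higher were 5 with no low-count filter, 5 with the replicate block plus length and GC content, and 4 without the doubted libraries. The median log2 fold change of the members was −0.063 with length and GC content corrected and −0.061 with the block as well. EIF2AK2, not called in the main fit, changed sign and was called higher under that correction, at 0.34 (adjusted p = 0.0152) and 0.34 with the block (0.0328). For these results the cause was not tested. Deviations of same-numbered libraries correlated at 0.0489, −0.00912 and −0.0761, and those of differently numbered ones at −0.0769 to 0.0974. No pairing by replicate number was seen, but deviations from means of 3 libraries cannot exclude one. The replicate block gave 5358 calls over all genes, 10 members higher and 6 lower, losing EIF3K and EIF4B. Copy genes, overlapping genes and low counts (EEF1A2, EIF4E3, EIF4EBP3) limit single values.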
